A study of Mus musculus with 18 samples.

Results

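The 8 acyl-CoA thioesterase genes Acot1, Acot2, Acot3, Acot4, Acot7, Acot9, Acot11 and Acot13 were followed through RNA sequencing of skeletal muscle (SKM), white adipose tissue (WAT) and brown adipose tissue (BAT) of C57BL/6J mice. The members were chosen by name with their quercetin contrasts and their levels in the vehicle 1 libraries already seen, so these values are described without support from a test. All 8 matched an Ensembl gene among the 53465 genes of the count files. The mice, on normal chow, received either quercetin, a plant flavonol, at 0.125 mg/kg, or its vehicle. Both were given by oral gavage in 100 µL of PBS with 10% PEG400, so the controls received PEG400 as well. Each of the 6 groups of tissue and arm held 3 libraries, numbered 1 to 3. The labels do not say whether a number marks the same animal in the 3 tissues, and no source used here gives the age or sex of the sequenced mice, how long they were treated, which muscle was taken or which white fat depot.

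Acyl-CoA thioesterases hydrolyse the thioester bond of an acyl-CoA, which releases a free acid and coenzyme A. They act in the reverse direction of the acyl-CoA synthetases, and family members differ in compartment and in the acyl chain they prefer. Acot1 (cytosol), Acot2 (mitochondrial matrix) and Acot3 and Acot4 (peroxisomes) form 1 protein family, and genes of this cluster are known targets of the nuclear receptor PPARα in mouse tissues. Acot7 (cytosol, abundant in brain), Acot9 (mitochondria), Acot11 (also called Them1 or brown fat inducible thioesterase) and Acot13 (Them2, found at mitochondria and in the cytosol) belong to another family, built on the hotdog fold.

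Total gene counts ranged from 8436308 to 12311345 per library. The labelled tissues carried their markers, with exceptions that touch results below. BAT quercetin 3 had a summed level of 5 brown adipocyte markers of 2937 CPM (counts scaled to a common library total by TMM factors of all 18 libraries, used for all levels), against 7897 to 11601 in the other BAT libraries, and a summed level of 6 muscle markers of 27367 CPM, against 8.09 to 4186. SKM quercetin 2 held a summed level of 25038 CPM for 7 transcripts of epididymis and seminal vesicle, 3 of them at 0, against at most 0.582 in the other SKM libraries. WAT vehicle 2 had 113 CPM of 5 adipocyte markers, against 1252 to 12011 in the other WAT libraries, and 937 CPM of muscle markers, against 19.0 to 88.8. SKM vehicle 3 had 2211 CPM of adipocyte markers, against 44.5 to 890 in the other SKM libraries. No gene of the 5 brown adipocyte or 5 adipocyte markers was at 0 in these libraries.

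Acot1 to Acot4 lie side by side on the plus strand of chromosome 12, within 72.5 kb (83987861 to 84060402, build GRCm38). In order along the strand, Acot2 covers 83987861 to 83993873, Acot1 84009490 to 84018371, Acot4 84038379 to 84048601 and Acot3 84052144 to 84060402. Acot5 (84069325 to 84076020) and Acot6 (84100654 to 84111349), which are not members, follow on the same strand. The word cluster is used here for the members Acot1 to Acot4 alone. Acot7 (152178134 to 152271855, plus strand) and Acot11 (106744555 to 106804998, minus strand) lie apart from each other on chromosome 4. Acot9 lies on chromosome X (155262443 to 155297654, plus strand) and Acot13 on chromosome 13 (24817948 to 24831540, minus strand). The coding sequences of Acot1 and Acot2 were the most alike of the 28 pairs of members, with 1180 of 1239 aligned bases identical, or 95.2%. The other pairs of the cluster reached at least 75.2%, and the 22 pairs that include a gene outside it lay between 55.9% and 63.8%.

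The starts of the Acot1 and Acot2 coding sequences are shown because they hold the difference behind the compartments of the proteins and because the genes share sequence elsewhere. The Acot2 coding sequence opens with 123 bases that have no counterpart in Acot1 and lie in the part that encodes the known mitochondrial leader. The following 90 bases of Acot2 align to the first 90 of Acot1, and capitals mark the 11 positions at which they differ. All 3 stretches are exonic, from the GENCODE transcripts of GRCm38.
Acot2 coding bases 1 to 123 (chr12:83987902-83988024, plus strand): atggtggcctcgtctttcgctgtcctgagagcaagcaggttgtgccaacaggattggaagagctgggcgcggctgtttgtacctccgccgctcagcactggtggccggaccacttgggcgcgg
Acot2 coding bases 124 to 213 (chr12:83988025-83988114, plus strand): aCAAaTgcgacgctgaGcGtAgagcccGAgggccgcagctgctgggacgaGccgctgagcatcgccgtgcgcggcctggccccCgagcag
Acot1 coding bases 1 to 90 (chr12:84009510-84009599, plus strand): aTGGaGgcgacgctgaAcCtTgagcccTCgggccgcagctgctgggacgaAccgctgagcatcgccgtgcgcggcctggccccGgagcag

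The longest stretch shared without a difference by Acot1 and Acot2 ran over 273 coding bases. Of all 100-base windows of annotated transcripts, 17.1% of those of Acot2 occurred also in Acot1, and 12.4% of those of Acot1 occurred in Acot2, Acot3, Acot4, Acot5 or Acot6. The share was 13.8% for Acot3, 0.336% for Acot4, 0.705% for Acot9 (with Acot10, a copy of it without introns) and 0 for Acot7, Acot11 and Acot13. Reads from the shared windows could be lost or split by the counting step, so the levels of Acot1, Acot2 and Acot3 carry that uncertainty. Other annotated genes overlap 20.6% of the exonic bases of Acot3, 9.71% of those of Acot4 and, on the opposite strand, 20.9% of those of Acot11. No source used here gives the strand setting of the counting, so reads of opposite strands cannot be told apart there.

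**Figure D1:**
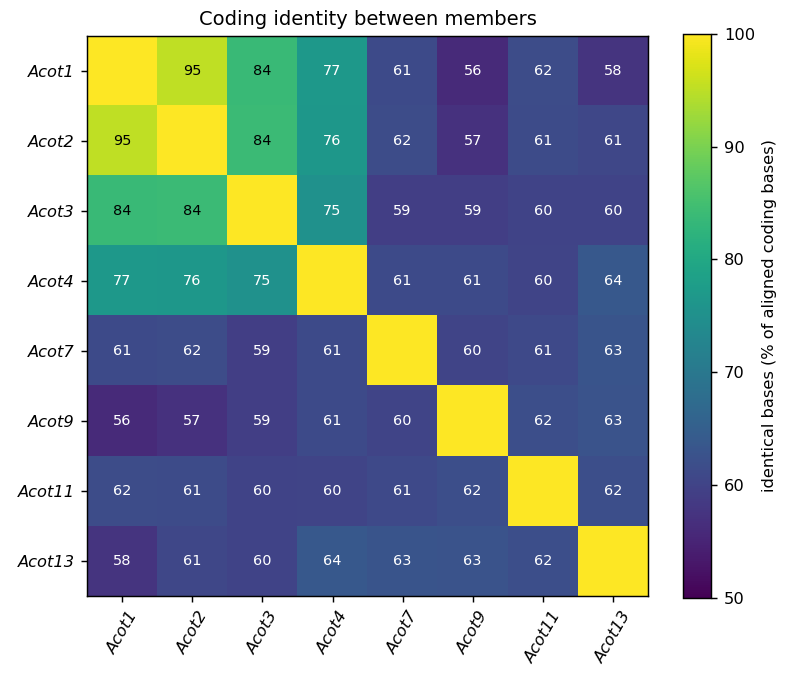
Each cell gives the share of identical bases, in percent of aligned coding bases, between a pair of members; the colour scale runs from 50 to 100%. The block of Acot1 to Acot4 stands at 75.2 to 95.2%, and all other pairs lie at or under 63.8%.

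Because Acot1 and Acot2 were high together in the same 3 libraries (below), the 250 bases before their RefSeq starts (GRCm38.p6) are shown for both genes.
Acot2 promoter (chr12:83987611-83987860, plus strand): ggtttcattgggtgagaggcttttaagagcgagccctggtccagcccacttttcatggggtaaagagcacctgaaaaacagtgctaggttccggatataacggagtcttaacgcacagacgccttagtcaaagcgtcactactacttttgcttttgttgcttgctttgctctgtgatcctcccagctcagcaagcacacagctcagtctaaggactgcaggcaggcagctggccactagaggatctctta
Acot1 promoter (chr12:84009252-84009501, plus strand): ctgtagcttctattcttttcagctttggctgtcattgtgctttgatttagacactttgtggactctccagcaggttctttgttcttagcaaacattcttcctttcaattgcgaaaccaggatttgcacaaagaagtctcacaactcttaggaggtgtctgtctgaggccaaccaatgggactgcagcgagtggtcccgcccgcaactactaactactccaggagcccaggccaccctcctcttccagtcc
The nuclear receptor half-site AGGTCA, the direct repeat of it with 1 base between the copies, and the same repeat with any base at the fourth place of each copy, which includes the stricter repeat, were searched on both strands from 250 bases before to 50 after each start. None of the 3 was in the windows of Acot1, Acot2, Acot7, Acot9 or Acot11, and AGGTCA alone occurred once in each listed window of Acot3 and Acot4. Of 32851 promoters in the RefSeq table, 16.3% held AGGTCA, 0.0396% the strict repeat and 0.381% the looser one. Acot13 was not matched in that table.

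Acot11, which in mouse brown fat is known as an inducible thioesterase, was at 76.9, 331 and 231 CPM in BAT vehicle 1 to 3 and at 553, 381 and 50.7 CPM in BAT quercetin 1 to 3. It was at 0.815, 5.17 and 4.84 CPM in vehicle and 6.27, 18.3 and 5.85 CPM in quercetin SKM, and at 0.545, 6.59 and 4.62 CPM in vehicle and 6.12, 3.06 and 4.27 CPM in quercetin WAT. Every BAT library was above every SKM and WAT library. The lowest BAT value came from the library with the low brown adipocyte and high muscle markers, and the highest SKM value came from SKM quercetin 2, which had 280 CPM of Ucp1, the uncoupling protein of brown adipocytes, against at most 0.699 in the other SKM libraries.

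Acot13, which prefers long-chain acyl-CoAs, was at 61.2, 136 and 49.2 CPM in vehicle and 61.3, 83.1 and 110 CPM in quercetin SKM. In WAT it was at 9.70, 14.4 and 11.2 CPM with vehicle and 19.3, 10.7 and 17.1 CPM with quercetin. In BAT it was at 77.2, 112 and 116 CPM with vehicle and 174, 106 and 100 CPM with quercetin. All WAT libraries were below all others, while the SKM and BAT ranges overlapped.

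Acot9 was at 48.8, 37.1 and 40.3 CPM in vehicle and 27.2, 38.7 and 33.7 CPM in quercetin SKM. It was at 32.1, 26.6 and 30.5 CPM in vehicle and 21.7, 38.9 and 32.2 CPM in quercetin WAT, and at 82.4, 50.9 and 61.0 CPM in vehicle and 67.9, 63.7 and 60.4 CPM in quercetin BAT. Every BAT library was above every other library. Acot7 was at 10.0, 26.7 and 20.2 CPM in vehicle and 24.5, 25.04 and 34.8 CPM in quercetin SKM, with the lowest of its 18 values in SKM vehicle 1. It ran from 24.3 to 43.0 CPM in WAT and from 20.5 to 38.7 CPM in BAT, and these ranges overlapped each other and that of SKM.

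The cluster genes split by library rather than by tissue alone. Acot2, the mitochondrial member, was at 469 CPM in SKM vehicle 1 and at 39.5 and 31.9 CPM in the other vehicle libraries, beside 18.3, 35.1 and 49.7 CPM with quercetin. In BAT it was at 640.3, 57.1 and 80.5 CPM with vehicle and 81.3, 49.0 and 34.1 CPM with quercetin, and in WAT at 42.8, 10.6 and 9.24 CPM with vehicle and 11.4, 10.7 and 12.8 CPM with quercetin. In each tissue vehicle 1 stood above the other 5 libraries, which lay close together.

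Acot1, the cytosolic member, was at 55.3, 3.25 and 2.66 CPM in vehicle and 1.05, 6.198 and 4.87 CPM in quercetin SKM. It was at 4.47, 1.17 and 1.34 CPM in vehicle and 0.635, 2.41 and 1.59 CPM in quercetin WAT, and at 50.9, 16.3 and 22.8 CPM in vehicle and 4.67, 13.0 and 4.91 CPM in quercetin BAT. Vehicle 1 was again the highest library of each tissue.

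Acot4, which in mouse acts on succinyl-CoA, was at 3.38, 0.601 and 4.04 CPM in vehicle and 0.105, 1.24 and 0.974 CPM in quercetin SKM. In WAT it was at 60.7, 0.0835 and 2.23 CPM with vehicle and 0.953, 2.48 and 7.24 CPM with quercetin, and in BAT at 43.8, 13.0 and 20.6 CPM with vehicle and 4.38, 18.8 and 2.82 CPM with quercetin. Vehicle 1 was the highest library in WAT and BAT but not in SKM.

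Acot3 was near the limit of detection. It had 0 counts in all 6 SKM libraries, where 3 counts, the limit that a count of 0 allows, correspond to 0.242 to 0.418 CPM by library for counting error alone. In WAT it was at 1.96 CPM in vehicle 1 and at most 0.0745 in the others, and in BAT at 0.802 and 0.444 CPM in vehicle 1 and 3 and at most 0.104 in the others. It did not pass the count filter in any comparison, so tests cover 7 of the 8 members.

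**Figure D2:**
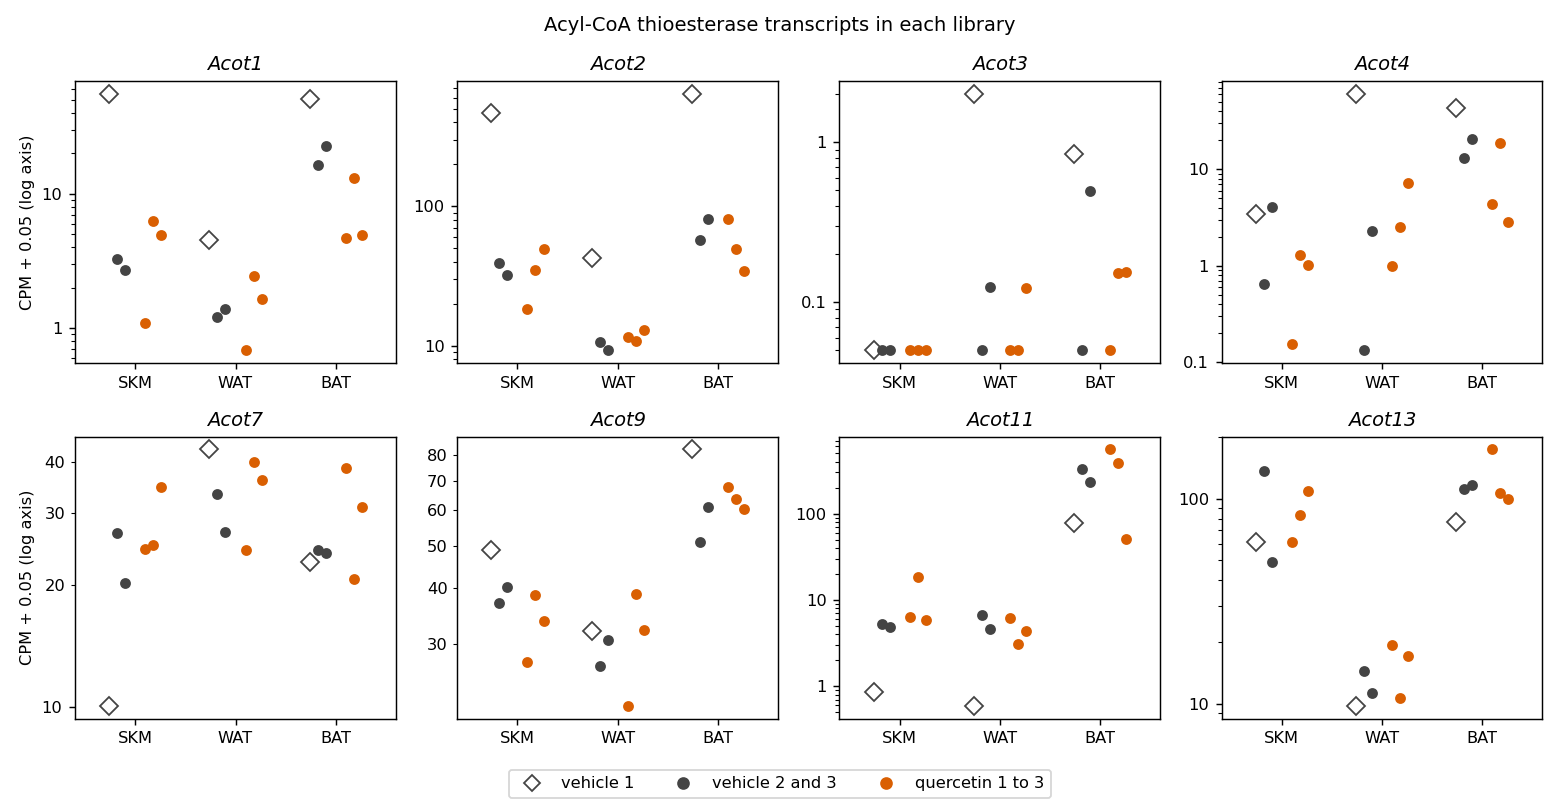
Each panel is 1 member, with CPM plus 0.05 on a log axis against tissue (SKM muscle, WAT white fat, BAT brown fat); each symbol is 1 library, open diamonds are vehicle 1, filled dark circles vehicle 2 and 3, and orange circles quercetin 1 to 3. Acot1 and Acot2 are highest in vehicle 1 of every tissue, and every BAT library lies above all others for Acot9 and Acot11.

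Per kilobase of exonic sequence, which allows members to be set side by side, Acot13 led in SKM and BAT with means over both arms of 112 ± 45.0 and 154 ± 43.5 CPM per kb (SD, n = 6). In BAT the next were Acot2 at 71.5 ± 108, Acot11 at 44.7 ± 31.6, Acot9 at 28.3 ± 4.601 and Acot7 at 12.6 ± 3.21 CPM per kb. In WAT, Acot13 at 18.4 ± 5.204, Acot7 at 15.97 ± 3.44 and Acot9 at 13.3 ± 2.55 CPM per kb lay within each other's spread. The large spread of Acot2 came with 1 library, and its mean without vehicle 1 was 27.5 ± 9.33 CPM per kb in BAT and 15.9 ± 5.22 in SKM (SD, n = 5).

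The make-up of the group changed accordingly. Acot13 held 60.2 to 79.0% of the summed CPM per kb in 5 SKM libraries, but 24.4% in SKM vehicle 1, where Acot2 held 63.4%. In BAT vehicle 1, Acot2 held 61.4%, against 7.71 to 13.2% in the other 5 BAT libraries. The summed level of the 8 genes was 337 CPM per kb in SKM vehicle 1 and 475 in BAT vehicle 1, against 110 to 231 and 201 to 412 in the other libraries of those tissues. WAT was mixed, with Acot7, Acot9 and Acot13 together holding most of the sum in every library.

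**Figure D3:**
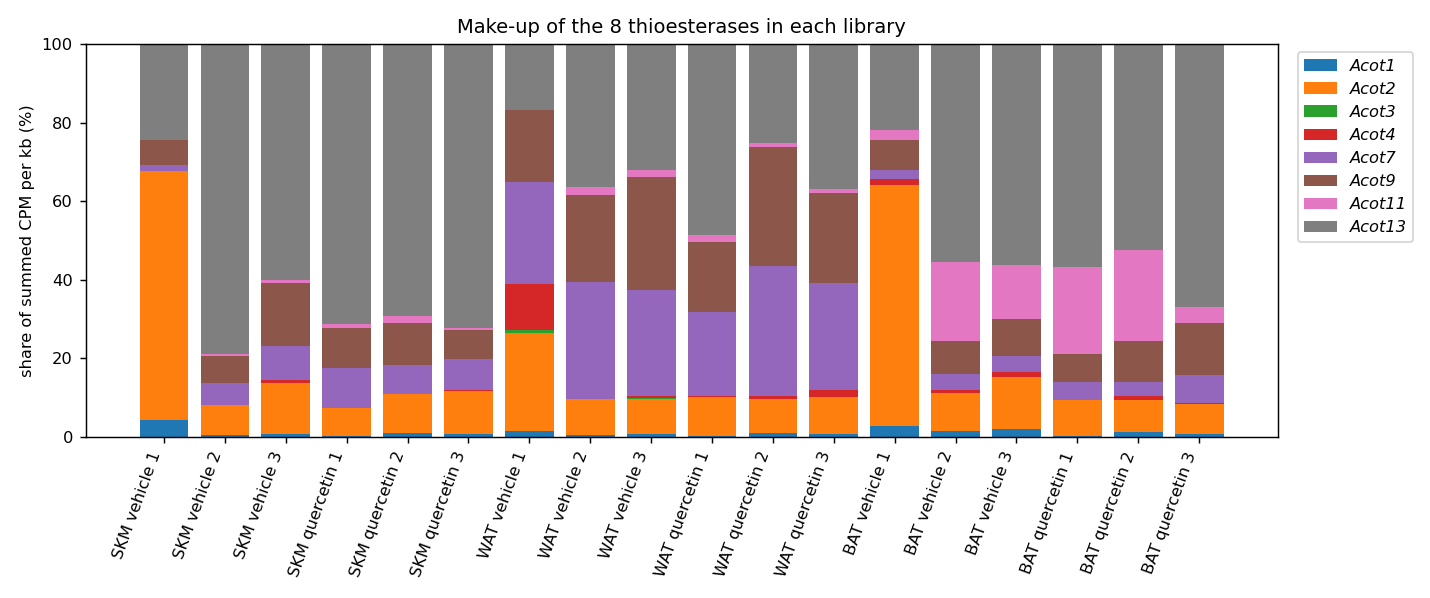
Stacked bars give each member's share, in percent, of the summed CPM per kb of the 8 genes in each of the 18 libraries (SKM muscle, WAT white fat, BAT brown fat). Acot2 takes 63.4% in SKM vehicle 1 and 61.4% in BAT vehicle 1, where Acot13 takes the largest share in the other libraries of these tissues.

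Brown fat was compared with white fat, averaging both arms. Acot11, Acot13, Acot1, Acot2 and Acot9 were higher in BAT, 5 of 7 members tested, and none was lower; 40.3% of the 16388 genes tested differed and 18.3% were higher. The difference was 5.97 ± 0.76 on the log2 scale (SE) for Acot11, 3.06 ± 0.30 for Acot13, 2.99 ± 0.76 for Acot1, 2.93 ± 0.76 for Acot2 and 1.09 ± 0.19 for Acot9. Adjusted p-values were 5.75e-05, 1.05e-05, 0.00652, 0.00690 and 0.000519 in that order (edgeR quasi-likelihood test, Benjamini-Hochberg over all genes). Acot4 had an estimate of 0.79 ± 0.96 (adjusted p = 0.539) and Acot7 of -0.35 ± 0.25 (adjusted p = 0.280). The median of the 7 was 2.93, beside -0.13 over all genes tested. Without the 3 vehicle 1 libraries, in which 49.3% of genes differed, the same 5 passed and Acot4 passed as well, at 2.57 (adjusted p = 0.0312). Acot4 passed also without WAT vehicle 1 alone, at 2.87 (adjusted p = 0.0127). In bulk tissue, fewer cells of a type and less RNA per cell cannot be told apart, and B cell markers summed to 425 to 2438 CPM in 4 WAT libraries and to at most 2.72 CPM in BAT. The part of cell types in these differences was not tested.

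Against muscle, Acot11, Acot4 and Acot9 were higher in BAT, 3 of 7 members tested, and none was lower; 27.2% of genes differed and 13.9% were higher. The log2 difference was 5.44 ± 0.74 for Acot11 (adjusted p = 0.000154), 3.38 ± 1.07 for Acot4 (adjusted p = 0.0288) and 0.79 ± 0.18 for Acot9 (adjusted p = 0.00558, edgeR). The estimates of Acot1, Acot2, Acot7 and Acot13 lay between 0.21 and 0.73, with adjusted p-values of 0.257 to 0.592. The 7 members had a median of 0.73, beside 0.03 over all genes. Without the vehicle 1 libraries, where 29.7% of genes differed, Acot1 passed at 1.80 (adjusted p = 0.0180) and Acot2 was at 0.80 (adjusted p = 0.0575). The Acot4 call was lost without any of BAT quercetin 2, BAT vehicle 1, SKM quercetin 1, SKM quercetin 3, SKM vehicle 1 or SKM vehicle 2, at adjusted p-values of 0.0539 to 0.0789 and log2 differences of 2.74 to 3.47. Acot13 passed without SKM vehicle 2, at 0.71 (adjusted p = 0.0471), and Acot1 without SKM vehicle 1, at 2.12 (adjusted p = 0.0158).

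White fat was below muscle for Acot13, Acot2 and Acot1, 3 of 7 members tested, and no member was higher; 50.3% of genes differed, with 28.6% higher and 21.7% lower. The log2 difference was -2.62 ± 0.29 for Acot13 (adjusted p = 1.24e-05), -2.33 ± 0.74 for Acot2 (adjusted p = 0.0165) and -2.25 ± 0.75 for Acot1 (adjusted p = 0.0208, edgeR). Acot4 had an estimate of 2.59 ± 1.05 (adjusted p = 0.0508), Acot7 of 0.55 ± 0.25 (adjusted p = 0.0734), and Acot9 and Acot11 of -0.30 and -0.53. The median of the 7 was -0.53, beside 0.24 over all genes. Without SKM vehicle 1, Acot1 was at -0.87 (adjusted p = 0.206) and Acot2 at -1.17 (adjusted p = 0.116), so neither call held when that library alone was left out. It was not the only setting in which they were lost, as the section on processing gives. With all 3 vehicle 1 libraries left out, where 53% of genes differed, both passed, at -1.32 (adjusted p = 0.0461) and -1.72 (adjusted p = 0.000611), and Acot4 was at 0.58 (adjusted p = 0.608). Acot7 passed without SKM vehicle 2, at 0.67 (adjusted p = 0.0464), and Acot4 without WAT vehicle 2, WAT vehicle 3 or BAT quercetin 2, at 2.58 to 2.84 (adjusted p = 0.0153 to 0.0499).

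**Figure D4:**
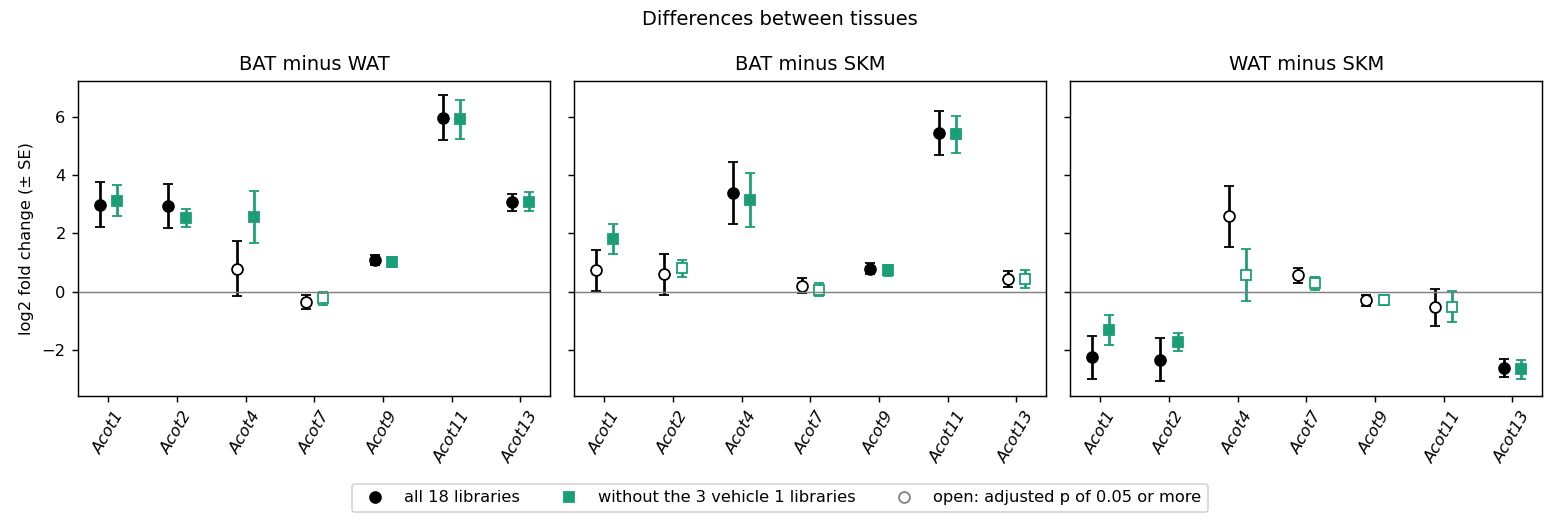
Points give the log2 difference between tissues (± SE) for the 7 members tested, from all 18 libraries (black circles) and without the 3 vehicle 1 libraries (green squares); filled symbols passed an adjusted p of 0.05. Acot11 stands at 5.97 and 5.44 above white fat and muscle, and Acot4 moves from 0.79 to 2.57 for brown against white fat between the sets of libraries.

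Other genes of acyl-CoA handling in the same contrasts give the members a setting. Over all genes tested, 18.3% were higher and 22% lower in BAT than in WAT. The shares were 13.9% and 13.3% for BAT against SKM, and 28.6% and 21.7% for WAT against SKM. The lists were not tested against these shares. Of 19 genes of mitochondrial fatty acid oxidation, 18 were higher in BAT than in WAT (median 3.42) and 17 higher than in SKM (median 2.19), and none was lower. Acaa2, a thiolase of the mitochondrial pathway, was higher by 4.79 ± 0.46 and 3.33 ± 0.43 on the log2 scale in BAT than in WAT and SKM (adjusted p = 1.05e-05 and 9.69e-05, edgeR). WAT was below SKM for 10 of the 19 and above for 1 (median -1.19). Of 15 peroxisomal genes, 9 were higher in BAT than in WAT and 8 higher than in SKM, with none lower. Of 14 acyl-CoA synthetases, which make the substrates of the thioesterases, 7 were higher and 1 lower in BAT than in WAT, and 5 higher and 2 lower than in SKM. Of 18 measured PPAR target genes, 8 were higher and 1 lower in BAT than in WAT, 4 higher and 1 lower than in SKM, and 6 higher and 5 lower in WAT than in SKM. Of 11 measured genes of coenzyme A synthesis and turnover, 7 were higher and 1 lower in BAT than in WAT, among them Pank1, a pantothenate kinase, at 5.70 ± 0.63 (adjusted p = 1.88e-05). Of 11 transcriptional regulators of these pathways, 7 were higher and 0 lower in BAT than in WAT. In WAT, 1 was higher and 8 lower than in SKM. Ppargc1a, a coactivator among them, was at 4.12 ± 0.58 and -5.06 ± 0.60 in that order (adjusted p = 0.000119 and 2.04e-05, edgeR). For BAT against SKM, 2 of the 11 were higher and 0 lower, with 6 estimates below 0 and a median of -0.32.

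Among 8 further acyl-CoA thioesterases and relatives, 5 could be tested across tissues. Acot12, a cytosolic acetyl-CoA hydrolase, had at most 0.120 CPM in SKM and 0.167 CPM in WAT, and it passed the count filter only through BAT. Its estimates of 5.42 ± 1.26 for BAT against WAT and 6.86 ± 1.51 for BAT against SKM are therefore a description. Its BAT values were 21.5 CPM in vehicle 1 and at most 1.70 in the other 5 libraries. Acot8, a peroxisomal thioesterase, was higher in BAT than in SKM by 0.87 ± 0.22 (adjusted p = 0.00970). Them4, a mitochondrial thioesterase, was higher in BAT than in WAT by 2.23 ± 0.31 (adjusted p = 0.000114) and lower in WAT than in SKM by -1.41 ± 0.30 (adjusted p = 0.00149). Acot5, Acot10, Them5 and Baat averaged at most 1.22 CPM in every group. Acot6, the neighbour of the cluster, was picked after its values were seen. It was at 5.82 CPM in SKM vehicle 1, against 6.82 to 11.7 CPM in the other SKM libraries. In WAT vehicle 1 it was at 10.5 CPM against 1.42 to 3.69, and in BAT vehicle 1 at 12.9 CPM against 4.10 to 11.4.

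The quercetin comparison asked which transcripts differed after the compound within a tissue. Since the members were chosen with this contrast known, their values are a description. No gene passed in any tissue with edgeR, which is 0% of 13562 genes in SKM, 14919 in WAT and 13274 in BAT. At an unadjusted p under 0.05 there were 406, 122 and 241 genes, DESeq2 called 0, 7 and 2 genes, and limma voom called 0 in each. No member was past the threshold of edgeR or limma voom, nor of DESeq2, which gave no adjusted p for Acot1 and Acot2 in SKM, Acot4 in WAT and Acot2 in BAT. The 7 members had 3 higher and 4 lower estimates in every tissue, with medians of -0.39, -0.05 and -0.01 in SKM, WAT and BAT, beside -0.03, -0.01 and 0.05 over all genes tested.

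In SKM the estimates of the cluster genes were -2.41 ± 1.21 for Acot1, -2.46 ± 1.03 for Acot2 and -1.87 ± 0.92 for Acot4 on the log2 scale (SE). In BAT they were -1.996 ± 0.596, -2.27 ± 0.94 and -1.58 ± 0.78, and in WAT -0.60 ± 0.81, -0.88 ± 0.67 and -2.62 ± 1.92, in the same order. Without vehicle 1 of the tissue, Acot2 was at -0.08 ± 0.40 in SKM, 0.24 ± 0.30 in WAT and -0.34 ± 0.39 in BAT. Acot1 was then at 0.41 ± 0.69 in SKM, 0.33 ± 0.73 in WAT and -1.37 ± 0.55 in BAT, and Acot4 at -1.67 ± 1.001, 1.60 ± 1.43 and -0.95 ± 0.82. Leaving out vehicle 1 thus turned the sign of Acot1 in SKM and WAT, of Acot2 in WAT and of Acot4 in WAT.

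Among the members outside the cluster, Acot11 was at 1.45 ± 0.72 in SKM, 0.20 ± 0.83 in WAT and 0.59 ± 0.82 in BAT, and at 0.99 ± 0.55, -0.32 ± 0.45 and 0.18 ± 0.87 without vehicle 1. Acot7 ranged over the tissues from -0.05 to 0.53, Acot9 from -0.39 to 0.05 and Acot13 from 0.01 to 0.40. Without vehicle 1 the same 3 genes ranged from 0.18 to 0.32, from -0.25 to 0.20 and from -0.15 to 0.30.

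Overlap of the arms was read from counts scaled within each tissue. In 2 cases the arms did not overlap with all libraries. Acot11 in SKM was higher in all 3 quercetin than in all 3 vehicle libraries, as were 5.11% of genes, and it remained so without vehicle 1, as were 7.59%. The highest of these quercetin values came from SKM quercetin 2, whose Ucp1 and seminal vesicle transcripts are given above, and without it the estimate was 0.72 in place of 1.45. In BAT, the Acot11 estimate was 1.10 in place of 0.59 without quercetin 3, the library rich in muscle markers. Acot1 in BAT was lower in all 3 quercetin libraries, as were 3.22% of genes, and remained so without vehicle 1, as were 5.71%. Without vehicle 1, Acot2 in WAT (9.45% of genes) and Acot9 in BAT (6.43% of genes) were higher in every quercetin library than in vehicle 2 and 3. For Acot9 this depended on the scaling, since with factors of all 18 libraries quercetin 3 (60.4 CPM) lay below vehicle 3 (61.0 CPM). No member stood lower with quercetin in SKM (4.14% of genes, and 6.8% without vehicle 1) or in WAT (2.25% and 9.83%). With all libraries, none stood higher with quercetin in WAT (2.36%) or BAT (3.01%).

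**Figure D5:**
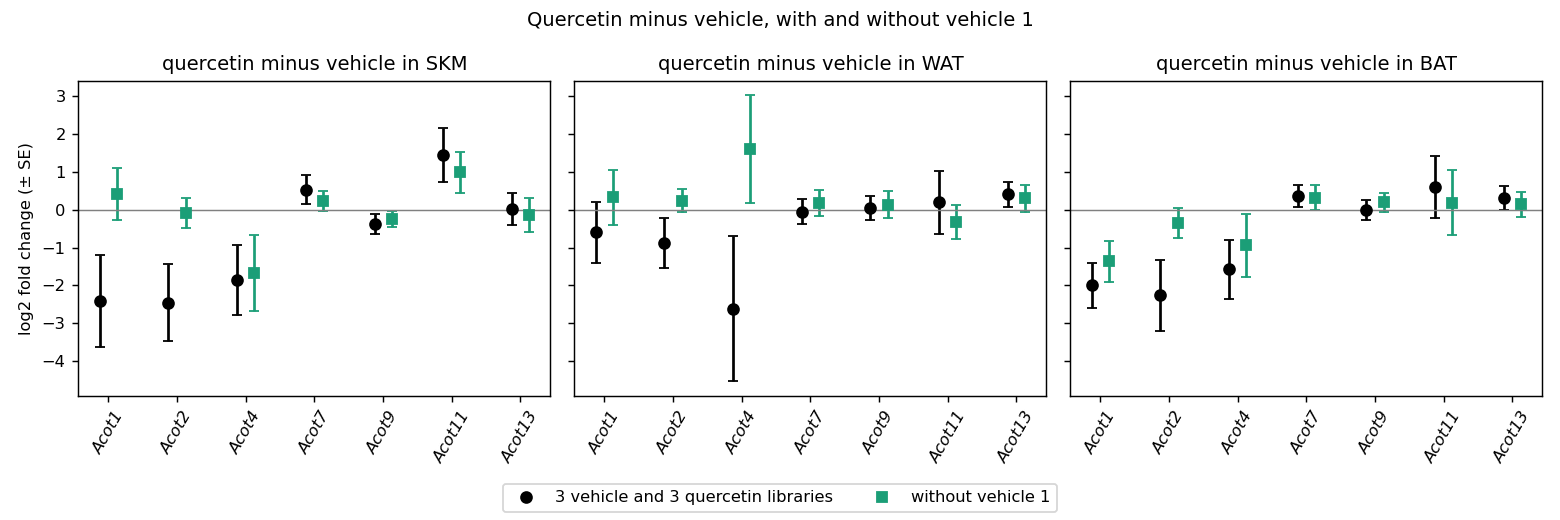
Points give the log2 fold change of quercetin against vehicle (± SE) for the 7 members tested in SKM (muscle), WAT (white fat) and BAT (brown fat), with all 6 libraries of the tissue (black circles) and without vehicle 1 (green squares). Acot2 moves from -2.46 to -0.08 in SKM and from -2.27 to -0.34 in BAT, while Acot7, Acot9 and Acot13 stay within 0.53 of 0.

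Interaction terms compared the quercetin estimates from tissue to tissue over all genes, and the members' values are again a description. With edgeR, 0% of 16388 genes passed for each of the 3 pairs of tissues, with 231 genes at an unadjusted p under 0.05 for WAT against SKM, 173 for BAT against WAT and 223 for BAT against SKM. DESeq2 called 7, 8 and 2 genes in that order and limma voom called 0. The estimates that lay farthest from 0 among the members were 1.77 ± 1.45 for Acot1 and 1.55 ± 1.42 for Acot2, both for WAT against SKM. Without SKM vehicle 1 they were -1.01 and -0.78, without WAT vehicle 1 they were 2.64 and 2.63, and without all 3 vehicle 1 libraries -0.19 and 0.25.

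Of the other lists, no gene passed in a quercetin contrast. PPAR target genes had lower estimates with quercetin for 12 of 14 measured in SKM (median -0.39), 12 of 14 in WAT (median -0.92) and 14 of 15 in BAT (median -0.64). Over all genes tested, 7185 of 13562, 7679 of 14919 and 5988 of 13274 had lower estimates, in that order. These counts include vehicle 1 and were not made without it. Vehicle 1 was the highest library for 12 of 18 PPAR target genes in WAT and 10 of 18 in BAT, as given below. The medians of the 19, 18 and 19 measured genes of mitochondrial fatty acid oxidation were -0.02 in SKM, 0.26 in WAT and -0.07 in BAT.

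The vehicle 1 libraries were then set beside the other 5 libraries of each tissue, as a description without a test. Acot2 in vehicle 1 was 13.4 times the median of the others in SKM, 3.99 times in WAT and 11.2 times in BAT. Acot1 was 17.0, 3.33 and 3.93 times that median. Both were the highest of 6 libraries in all 3 tissues, as were 5% of the 16388 genes. Within a tissue, vehicle 1 was the highest library for 28.8% of genes in SKM, 25.5% in WAT and 22.1% in BAT, so a highest place alone was common. Ranked by the log2 ratio, Acot1 and Acot2 took places 24 and 34 from the top of 16388 genes in SKM, Acot4 place 37 in WAT and Acot2 place 82 in BAT. Acot1 took place 1799 in WAT and 386 in BAT, Acot2 place 1030 in WAT, and Acot4 places 1107 in SKM and 543 in BAT.

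The other members had no common place in these libraries, and none was the lowest of 6 in all 3 tissues, as were 6.13% of genes. Acot11 was the lowest of 6 in SKM and in WAT, where vehicle 1 was lowest for 36.1% and 31.5% of genes, and in BAT only quercetin 3 was lower. Acot13 was the lowest in WAT and BAT, and Acot7 the lowest in SKM and the highest in WAT. Acot9 was the highest in SKM and BAT, at 1.32 and 1.35 times the median of the others.

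Of the 18 measured PPAR target genes, vehicle 1 was the highest library for 4 in SKM, 12 in WAT and 10 in BAT, and their median ratio to the other 5 libraries was 0.981, 5.01 and 1.83. The following genes were chosen after their values were seen. Cd36, a fatty acid transporter, and Mlycd, malonyl-CoA decarboxylase, were highest in vehicle 1 of all 3 tissues, at 2.91, 11.3 and 2.70 times and at 3.43, 3.09 and 1.83 times the median of the others in SKM, WAT and BAT. Pdk4, the kinase that inhibits pyruvate dehydrogenase, was at 7697 CPM in SKM vehicle 1 against 1657 to 2526 in the other SKM libraries, and at 1315 against 27.5 to 107 CPM in WAT, but at 3122 against 1161 to 3438 CPM in BAT. Ehhadh, a peroxisomal oxidation enzyme, was at 394 CPM in WAT vehicle 1 against 9.68 to 95.9, and at 488 in BAT vehicle 1 against 13.0 to 190 CPM, but at 11.3 in SKM vehicle 1 against 6.82 to 48.1 CPM. Ppara itself was at 7.80 CPM in SKM vehicle 1, the lowest of that tissue, and at 8.72 CPM in WAT vehicle 1, the highest there.

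Other markers also set vehicle 1 libraries apart, but not in the same direction in every tissue. The 6 muscle atrophy markers were all highest in SKM vehicle 1, with a summed level of 19738 CPM against 1072 to 3355. In WAT, vehicle 1 was the highest library for 0 of them and the lowest for 0. Adipocyte markers summed to 12011 CPM in WAT vehicle 1, against 113, 1873, 1252, 6710 and 3958 CPM in vehicle 2 and 3 and quercetin 1 to 3, in which Acot4 was at 0.0835, 2.23, 0.953, 2.48 and 7.24 CPM. Vehicle 1 was the highest WAT library for 3 of the 5 adipocyte markers. In SKM it was the highest for 0 of these and the lowest for 2, and in BAT for 2 and 1. The 5 macrophage markers were all highest in BAT vehicle 1, at 334 CPM in sum against 116 to 185. SKM vehicle 1 was the lowest library of its tissue for 4 of them and the highest for 1. WAT vehicle 1 was the lowest for 2 and the highest for 0. Muscle markers summed to 4186 CPM in BAT vehicle 1 and 27367 in quercetin 3, against 8.09 to 1588 in the other 4. The 6 atrophy markers summed to 1813 CPM in BAT vehicle 1, below vehicle 2 (3439), vehicle 3 (3067) and quercetin 3 (9352). Vehicle 1 was the highest BAT library for 2 of the 6, among them Trim63 at 598 CPM, and the lowest for 1. Trim63 was chosen after its values were seen. B cell markers were at 0.981 CPM in WAT vehicle 1 and 2.55 in quercetin 2, against 425 to 2438 in the other 4. Their part in the levels of the thioesterases was not tested. WAT vehicle 1 came from flow cell H7GKJDSXX with WAT quercetin 2 and SKM quercetin 3, and the other 15 libraries from H7H2WDSXX. SKM vehicle 1 and BAT vehicle 1, in which Acot2 was above 400 CPM, thus shared the flow cell of most other libraries.

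After the mean of each tissue was removed, log2 CPM of Acot1 and Acot2 had a Pearson r of 0.87 over the 18 libraries and 0.51 over the 15 without vehicle 1, given as a description since the libraries share depth and composition. Acot1 with Acot4 kept a similar r, at 0.64 and 0.62, and Acot2 with Acot4 went from 0.60 to 0.35. Acot11 against Acot2 was at -0.58 over 18 and 0.44 over 15 libraries, a change of sign. Acot13 against Acot2 went from -0.28 to 0.63.

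The gene most like a member by this r over 18 libraries was Nploc4 for Acot1 (0.92), Tmbim6 for Acot2 (0.92), Apmap for Acot4 (0.93), Mfsd3 for Acot7 (0.93), Usp5 for Acot9 (0.84) and Atp5mpl for Acot13 (0.94). For Acot13, the next were Atp5h (0.94), a subunit of ATP synthase as is Atp5mpl, and Chchd3 (0.93). Without vehicle 1, Atp5h led for Acot13 with an r of 0.98 and Apmap again led for Acot4 with 0.90. Over the 15 libraries another gene led for Acot1, Acot2, Acot7 and Acot9, namely Ccdc126, Nit1, Chmp6 and Gzf1.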

How the data were processed

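Total RNA libraries of 18 samples were grouped by tissue and arm from the labels. The authors deposited raw counts per Ensembl gene, without normalization. The build mm10 and the tools HISAT2, HTSeq and DESeq2 are named per the submitters' processing notes; no source used here gives versions, the annotation release or the strand setting. Reads without a feature (2.53 to 9.11%) and ambiguous reads (6.47 to 9.84%) were left out. Symbols for 53360 genes and coordinates came from GENCODE (GRCm38). The column of white fat vehicle 1 has a header that differs from its title; its sample was taken from its own record.

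Counts were filtered by filterByExpr (minimum count 10, minimum total 15), scaled by TMM and tested with edgeR 4.0.16 (two-sided quasi-likelihood test) in R 4.3.3, adjusted by Benjamini-Hochberg over all genes tested, with a threshold of 0.05. Quercetin was compared with vehicle in the 6 libraries of each tissue; tissue contrasts and interactions came from 1 fit of 18 libraries with 6 group means. DESeq2 1.42.0 and limma 3.58.1 (voom) were alternatives. Coding sequences were aligned with Biopython 1.88. Scripts were tested on simulated data. The p-values measure the spread between libraries, which the labels do not tie to separate animals. With 3 against 3, an exact permutation test of 1 gene cannot go below p = 0.1. No pair of replicates agreed within sampling noise.

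The members and the gene lists were chosen with earlier results of these data known. Named genes were all 8 members, up to 2 genes of each list with the smallest p per contrast, and the genes most like each member by Pearson r of log2 CPM (pseudocount 0.5) after removal of tissue means; exceptions are named as such. The likeness of Acot11 to other genes is not reported here.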

Additional observations from a re-analysis of the deposited data

How the results depend on the processing

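Of 588 values of members in tissue contrasts under alternatives, 552 kept their direction and side of the threshold, 14 passed newly, 20 no longer passed and 2 changed sign. A value without an adjusted p was counted as kept where its direction was the same. For each contrast, 18 of the alternatives left out 1 library and so shared most of their data. The changes of sign were Acot11 for WAT against SKM in vehicle libraries alone (0.17, against -0.53) and Acot2 for BAT against SKM without BAT vehicle 1; leaving out each library gave -0.39 to 1.77 for the latter. Neither value passed the threshold in any of these. The cause was not tested. Genes past the threshold numbered 4461 for BAT against SKM, 6604 for BAT against WAT and 8251 for WAT against SKM. Vehicle libraries alone gave 871, 1442 and 3091 and quercetin libraries alone 2130, 2965 and 4786, with fewer libraries in each. Leaving out each library gave 3463 to 5097, 5383 to 7917 and 7194 to 8843. For quercetin, DESeq2 called 7 genes in WAT and 2 in BAT, the absence of a filter gave 32 in SKM, and leaving out each BAT library gave 0 to 1, the 1 without BAT quercetin 3. For interactions DESeq2 called 2 (BAT against SKM), 8 (BAT against WAT) and 7 (WAT against SKM). In DESeq2, Acot1 and Acot2 in SKM, Acot4 in WAT and Acot2 in BAT had no adjusted p for quercetin. Limma voom gave 0.36 for Acot4 in WAT with quercetin, against -2.62, and for Acot1 in WAT against SKM -1.56 (adjusted p = 0.152).

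With the replicate number as a block (within an arm across tissues for tissue contrasts, across arms within a tissue for quercetin), tissue contrasts called 4370, 6319 and 8071 genes in the same order and every quercetin contrast 0; Acot1 in BAT against SKM then passed at 1.33 (adjusted p = 0.0369) and Acot4 in WAT with quercetin was at 0.94. Vehicle and quercetin libraries of the same number and tissue deviated from their group means with r from -0.71 to 0.26. Across tissues, same-numbered vehicle libraries had r from 0.14 to 0.29 for SKM with WAT or BAT and 0.07 to 0.20 for WAT with BAT, and quercetin libraries -0.15 to 0.18. The labels name no shared animal and the quercetin pairs fell on both sides of 0, so the numbers were not taken as pairs. The vehicle values across tissues, all above 0, are a hint from the data only. If a number does mark the same animal, the main tissue contrasts treat libraries of the same animal as separate.

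Leaving out SKM quercetin 2, WAT vehicle 2 and BAT quercetin 3 together, an alternative chosen after seeing the data, took Acot1 and Acot2 in WAT against SKM to adjusted p-values of 0.0998 and 0.0617. On flow cell H7H2WDSXX alone, Acot4 was higher in BAT than WAT at 2.79 (adjusted p = 0.0252). Acot1 in BAT against WAT did not pass in quercetin libraries alone (2.28, adjusted p = 0.06096) or vehicle libraries alone (3.66, adjusted p = 0.0844), and in vehicle libraries alone neither did Acot2 in BAT against WAT (3.61, adjusted p = 0.117) nor Acot9 in BAT against SKM (0.58, adjusted p = 0.269). Depth limits Acot3 most, which had few or no counts.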
